A study of Homo sapiens with 6 samples.

Results

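The genes described here are 49 genes of DNA replication, from origin licensing to the moving fork and its nucleotide supply. They were taken from a fixed list of gene names and not by a cutoff on their measured values. The list was chosen with earlier results of these data known. All 49 were found among the 36923 genes with a count above 0 in any library. RNA was measured in K562 cells, an established human erythroleukemia line, transduced with lentivirus that carried a short hairpin RNA in the pLKO.1 plasmid. The control hairpin (shCtrl) was directed at luciferase and the other (shPCBP1) at PCBP1, an RNA-binding protein with a preference for C-rich stretches that also delivers iron within the cytosol. Both groups were exposed to polybrene, selected with puromycin and collected 4 days into selection, and each group held 3 libraries of poly-A RNA. The knockdown lowers PCBP1 without deleting it, both groups carry an integrated hairpin, and all values come from bulk cultures of 1 cell line.

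Replication starts in G1, when the origin recognition complex (ORC) together with CDC6 and CDT1 loads rings of the MCM2-7 helicase onto DNA. In S phase the DBF4-dependent kinase and cyclin-dependent kinases turn these rings into working helicases by adding CDC45 and the GINS complex, after which primase-polymerase alpha starts each strand and polymerases delta and epsilon extend it. PCNA clamps the polymerases to DNA, RFC loads the clamp, FEN1 and LIG1 finish the lagging strand, and ribonucleotide reductase and thymidylate synthase supply deoxynucleotides. Many of these genes are known targets of the E2F transcription factors, and in bulk RNA a change in the share of cells in S phase cannot be told apart from a change in RNA per cell.

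Libraries held between 67066747 and 140522444 estimated counts, with the 2 deepest in shCtrl. PCBP1 had 40566, 38409 and 37799 normalized counts in shCtrl and 6625, 7277 and 7221 in shPCBP1, so its RNA stood at 18.1% of the control level. Replicates were less alike than sampling alone would make them (chi-square per degree of freedom from 6.48 to 16.4). This does not show that they were separate cultures, and each library was counted as a sample. Nothing in the labels says that they came from separate cultures, so the p-values measure only the spread between these libraries. All 10 erythroleukemia markers were detected, with a summed level of 28974 to 34793 TPM (abundance scaled on transcript length to the same sum in every library) in shCtrl and 33172 to 34602 TPM in shPCBP1. Markers of HEK293T cells, which made the virus, summed to between 0.802 and 1.88 TPM in any library, with NEFM and PAX2 at or near 0. The 6 lymphocyte and monocyte markers summed to between 48.2 and 77.0 TPM, nearly all of it from CD3D (66.1 TPM in shCtrl), while CD3E, CSF1R and MS4A1 were each under 0.1 TPM in shCtrl.

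After PCBP1 knockdown the genes called higher rose by between 8.68% (RRM2) and 26.4% (MCM10). They included the helicase core, its loading factors, the sliding clamp and several fork proteins. POLD1, the catalytic subunit of polymerase delta, fell by 36.6%. Of the 49 genes, 20 were higher and 4 lower at an adjusted p under 0.05 (DESeq2 Wald test on normalized counts, Benjamini-Hochberg over all genes), and 25 were not called. With transcript length offsets 19 were higher and 2 lower. Without these offsets, the same rule called 17.7% higher and 13.5% lower over all 17095 genes tested. Abundant genes pass more easily, and among the 9369 genes averaging 1000 or more normalized counts, as all 49 did, it called 28.7% higher and 16.2% lower, against 40.8% and 8.16% of the replication genes. No single role was tested against these shares. Their median log2 fold change was 0.07, beside 0.00 over all genes tested and 0.04 over the abundant genes. With DESeq2 and with edgeR, 0 of the 49 passed the thresholds of the study, which also ask for an absolute log2 fold change over 1 and which 1.37% of the genes passed.

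**Figure D1:**
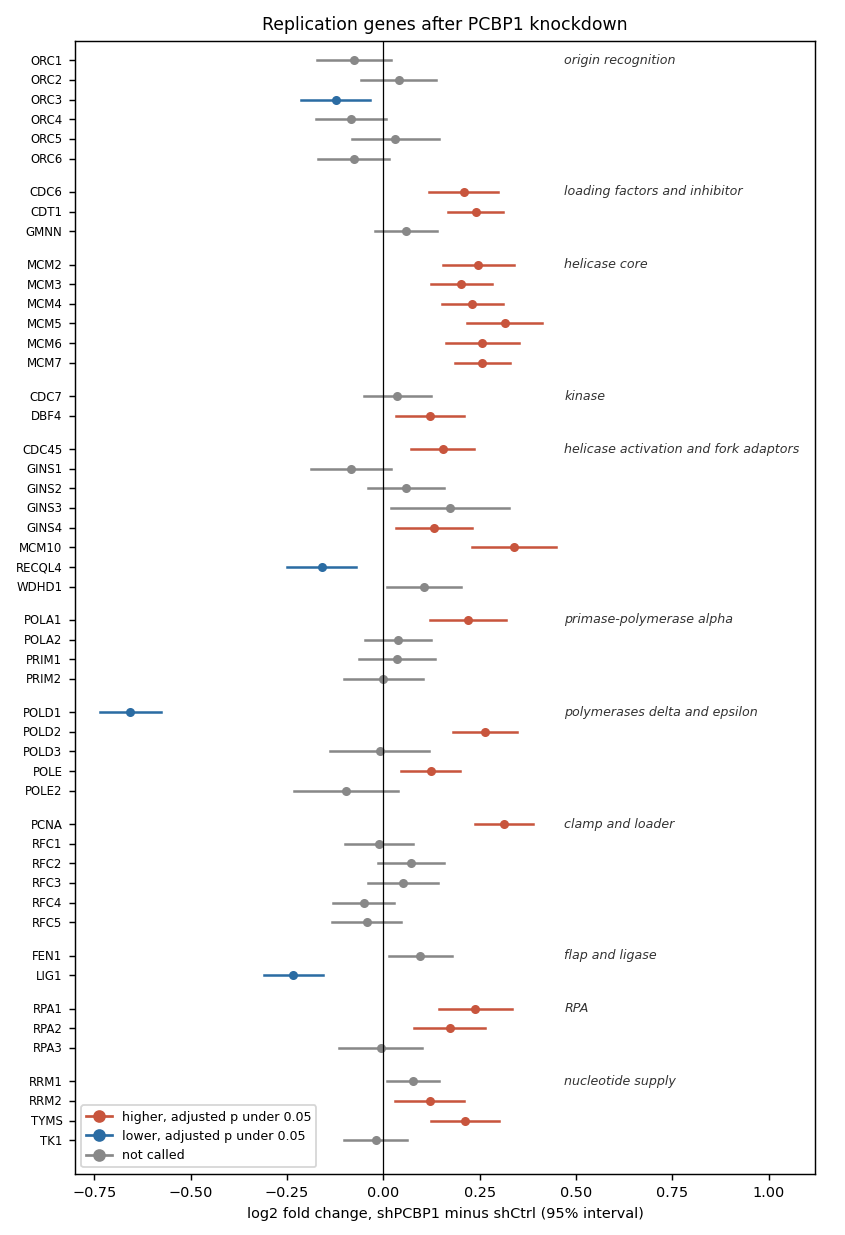
Log2 fold change of each of the 49 genes, shPCBP1 minus shCtrl, as points with 95% intervals from 3 libraries a group, grouped by role. All 6 helicase core genes lie between 0.20 and 0.32, no ORC gene was called higher, and POLD1 stands alone at -0.66.

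Among the members called, 23 of 24 had groups that did not overlap, meaning that every shPCBP1 library lay on the same side of every shCtrl library, and RRM2 was the exception. Among all abundant genes 96.8% of those called had no overlap either, and so did 23.0% of those not called, beside 7 of the 25 members not called. The calls of 17 of the 24 held under each of 15 other analyses, including other tests, scalings and filters and the removal of any single library. The other 7 (CDC45, DBF4, GINS4, ORC3, POLE, RECQL4 and RRM2) lost the call in at least 1 of them.

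**Figure D2:**
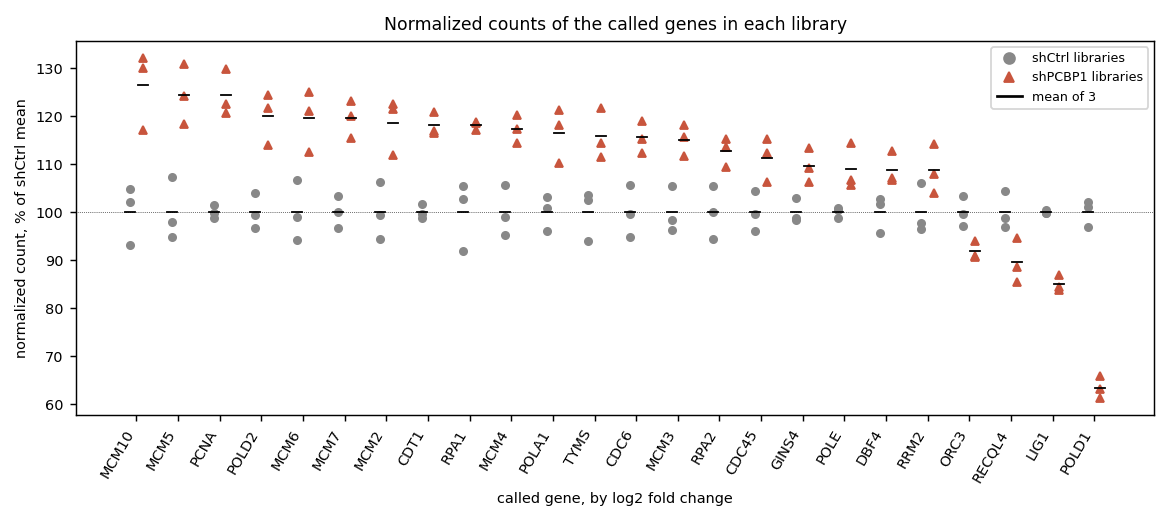
Normalized counts of the 24 called genes in each library as a percentage of the gene's shCtrl mean, ordered by log2 fold change; circles are shCtrl libraries, triangles shPCBP1 libraries and bars means of 3. The shPCBP1 triangles sit above all circles from MCM10 to DBF4, overlap them for RRM2, and sit below them for ORC3, RECQL4, LIG1 and POLD1.

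ORC genes were not among the licensing genes that rose. ORC marks origins, and 0 of its 6 subunit genes were called higher (DESeq2, 0 also with edgeR or at an unadjusted p under 0.05). The 1 called lower made 16.7% of the 6 genes. Among abundant genes 28.7% were called higher and 16.2% lower, and whether ORC differs from these was not tested. ORC3 had 7029, 6853 and 7299 normalized counts in shCtrl and 6421, 6629 and 6398 in shPCBP1. All 3 shPCBP1 libraries lay below shCtrl, for a log2 fold change of -0.12 (DESeq2 adjusted p 0.0259, SE 0.0459), a call that was lost under transcript length offsets (adjusted p 0.298) and without shCtrl replicates 1 or 3 or shPCBP1 replicates 1 or 3 (adjusted p from 0.0652 to 0.121). The log2 fold changes of the other 5, ORC1, ORC2, ORC4, ORC5 and ORC6, ran from -0.08 to 0.04 and did not pass the test. ORC4 was called lower when only protein-coding transcripts were summed (-0.14, adjusted p 0.0324). Levels of the 6 ORC genes in shCtrl ran from 19.4 TPM (ORC2) to 65.9 TPM (ORC6).

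CDC6 and CDT1, which bring MCM rings to ORC, both rose. CDC6 had 12727, 12124 and 13523 normalized counts in shCtrl and 15226, 14747 and 14364 in shPCBP1, a log2 fold change of 0.21 (DESeq2 adjusted p 4.96e-05, SE 0.0457). CDT1 had 14029, 14130 and 14420 in shCtrl and 17139, 16589 and 16538 in shPCBP1, a log2 fold change of 0.24 (DESeq2 adjusted p 8.44e-10, SE 0.036). In both genes the lowest shPCBP1 library exceeded the highest shCtrl library. Geminin (GMNN), the protein that binds CDT1 and blocks loading a second time in the same cycle, had a log2 fold change of 0.06 (SE 0.0411, 95% interval -0.02 to 0.14, DESeq2 adjusted p 0.302) and did not pass the test.

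All 6 genes of the helicase core rose, by 15.1% (MCM3) to 24.4% (MCM5), while 28.7% of abundant genes were called higher. Whether the helicase core differs from these was not tested. MCM5 had 16306, 15778 and 17860 normalized counts in shCtrl and 21799, 20655 and 19695 in shPCBP1, a log2 fold change of 0.32 (DESeq2 adjusted p 5.57e-09, SE 0.0497). MCM7 had 67258, 65064 and 69518 in shCtrl and 82853, 80729 and 77608 in shPCBP1, a log2 fold change of 0.26 (DESeq2 adjusted p 4.24e-11, SE 0.0362). In neither gene did the groups overlap. MCM6 had 24763, 23561 and 26681 in shCtrl and 31254, 30257 and 28141 in shPCBP1, a log2 fold change of 0.26 (DESeq2 adjusted p 1.53e-06, SE 0.0484). MCM2 had 20694, 19664 and 22104 in shCtrl and 25527, 25274 and 23311 in shPCBP1, a log2 fold change of 0.25 (DESeq2 adjusted p 2.69e-06, SE 0.0474). Both genes encode subunits of the same ring and moved by nearly the same proportion. MCM4 had 46038, 44254 and 49140 in shCtrl and 55880, 54546 and 53205 in shPCBP1, a log2 fold change of 0.23 (DESeq2 adjusted p 1.54e-07, SE 0.0401) that was 0.36 under transcript length offsets (adjusted p 4.01e-09). MCM3 had 28843, 28227 and 30950 in shCtrl and 34642, 33898 and 32749 in shPCBP1, a log2 fold change of 0.20 (DESeq2 adjusted p 6.99e-06, SE 0.0405).

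The helicase genes also moved together from library to library within a group. In shCtrl all 6 were lowest in replicate 2 and highest in replicate 3, and in shPCBP1 all 6 were highest in replicate 1 and lowest in replicate 3. The order was not particular to the helicase: of all 49 genes, 36 were lowest in shCtrl replicate 2, 33 highest in shCtrl replicate 3, 33 highest in shPCBP1 replicate 1 and 35 lowest in shPCBP1 replicate 3. What those libraries differ in was not tested, and the within-group spread was in each of the 6 genes smaller than the gap between group means. The ring holds its 6 subunits in equal number, but their RNA levels were unequal: MCM7 stood at 364 TPM ± 7.76 (SD, n = 3) in shCtrl, MCM4 at 200 TPM ± 5.89 and MCM3 at 136 TPM ± 4.49. MCM6 at 87.1 TPM ± 3.82, MCM2 at 77.6 TPM ± 3.26 and MCM5 at 71.2 TPM ± 3.32 followed, and MCM2 lay above MCM5 by 5.43 to 7.55 TPM in the shCtrl libraries and by 1.82 to 3.82 TPM in the shPCBP1 libraries. In summed TPM the 6 genes held 918 to 968 in shCtrl and 1080 to 1133 in shPCBP1.

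**Figure D3:**
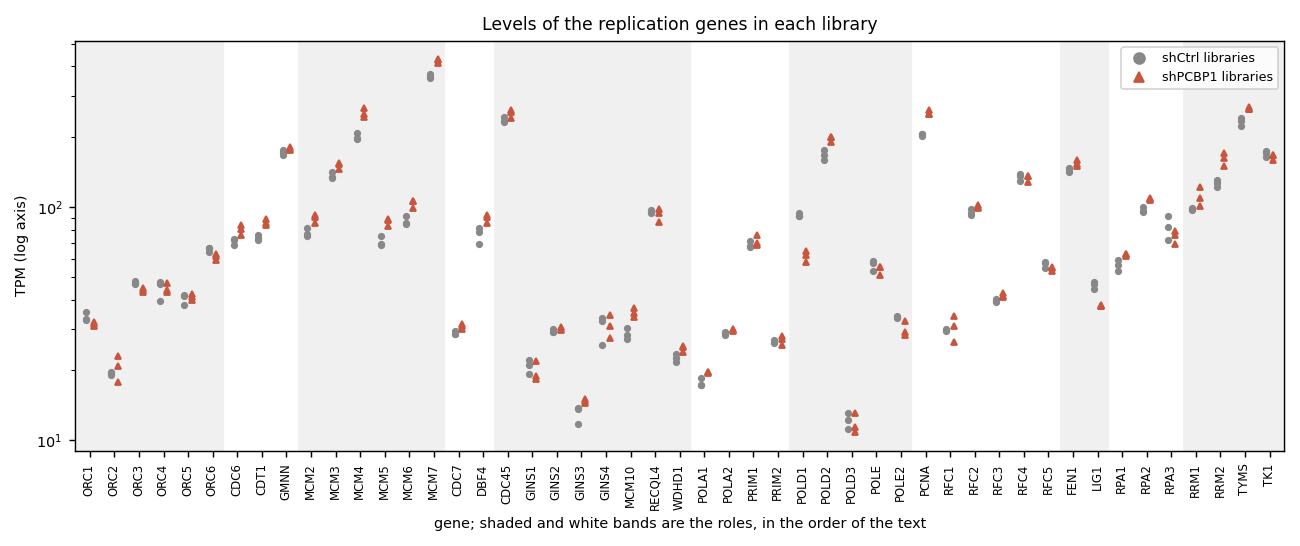
TPM of the 49 genes in each library on a log axis, with circles for shCtrl and triangles for shPCBP1 and bands for the roles. MCM7 is the most abundant at 364 TPM in shCtrl and POLD3 the least at 12.2 TPM, and POLD1 shows the widest gap between groups.

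The DBF4-dependent kinase phosphorylates the loaded MCM ring, and 1 of its 2 subunits was called higher, beside 28.7% of abundant genes. Its regulatory subunit DBF4 had 8794, 8265 and 8892 normalized counts in shCtrl and 9225, 9745 and 9260 in shPCBP1, a log2 fold change of 0.12 (DESeq2 adjusted p 0.0285, SE 0.0455). Under transcript length offsets it was 0.26 (adjusted p 0.000793), and DBF4 went from 76.2 TPM ± 5.96 (SD, n = 3) to 89.6 TPM ± 3.68. Of this TPM, 96.8% in shCtrl and 96.6% in shPCBP1 was assigned to transcripts not annotated as protein-coding. The annotated main transcript DBF4-201 stood at 2.45 TPM in shCtrl and 3.02 TPM in shPCBP1. Without length offsets the call was lost with edgeR (adjusted p 0.103) and when only protein-coding transcripts were summed (0.24, adjusted p 0.2). It was also lost when any of shCtrl replicates 1 and 2 and shPCBP1 replicate 2 was left out (adjusted p from 0.0523 to 0.182). Reads of DBF4 may be shared with 3 pseudogenes that summed to 2.08 TPM. The catalytic subunit CDC7 had a log2 fold change of 0.04 (DESeq2 adjusted p 0.596, SE 0.0445).

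Of the 8 genes that activate the helicase or join it to the polymerases, 3 (37.5%) rose and 1 (12.5%) fell. The shares among abundant genes were 28.7% and 16.2%. MCM10, needed for the loaded rings to separate and start unwinding, rose by the largest proportion of the 49 genes, from 8237, 7522 and 8457 normalized counts to 10666, 10502 and 9452, a log2 fold change of 0.34 (DESeq2 adjusted p 2.88e-08, SE 0.0558). CDC45, a part of the active helicase, had 27337, 26376 and 28658 in shCtrl and 31626, 30852 and 29181 in shPCBP1, a log2 fold change of 0.15 (DESeq2 adjusted p 0.00126, SE 0.0414). In both genes the groups were apart, though the lowest shPCBP1 library of CDC45 exceeded the highest shCtrl library by little, and its call was lost under transcript length offsets (adjusted p 0.119). GINS4 had 4800, 4998 and 4773 in shCtrl and 5300, 5503 and 5158 in shPCBP1, a log2 fold change of 0.13 (DESeq2 adjusted p 0.0296, SE 0.0501) that was lost under 9 of the 15 other analyses, among them the removal of shCtrl replicates 1 or 3 or shPCBP1 replicates 1 or 2 (adjusted p from 0.0641 to 0.163). The other GINS subunits had log2 fold changes of -0.08 (GINS1), 0.06 (GINS2) and 0.17 (GINS3) and WDHD1, which links the helicase to polymerase alpha, of 0.11, and none of these passed the test. WDHD1 was called higher under transcript length offsets (0.15, adjusted p 0.0466), with protein-coding transcripts only (0.18, adjusted p 0.0134) and without shCtrl replicate 3 (adjusted p 0.0373), and GINS1 lower with protein-coding transcripts only (-0.17, adjusted p 0.00461). GINS2 lies antisense to GSE1 (107 TPM), and whether counting used strand is not given in the sources used here.

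RECQL4, a helicase of the RecQ family needed at origins, fell from 15940, 15652 and 16857 normalized counts to 15273, 13783 and 14316, a log2 fold change of -0.16 (DESeq2 adjusted p 0.00269, SE 0.0458). The highest shPCBP1 library lay just below the lowest shCtrl library. The fall was 0.02 under transcript length offsets (adjusted p 0.849), and the call was lost without shPCBP1 replicate 2 (adjusted p 0.0621). An antisense RNA of 16.1 TPM overlaps the gene, and 1 retained-intron transcript, RECQL4-211, took 5.65%, 3.45% and 4.51% of its TPM in shCtrl and 13.7%, 10.6% and 11.5% in shPCBP1.

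Primase-polymerase alpha lays the RNA-DNA primers of both strands. Its catalytic subunit POLA1 rose from 7057, 6567 and 6905 normalized counts to 8292, 8089 and 7538, with no overlap and a log2 fold change of 0.22 (DESeq2 adjusted p 9.53e-05, SE 0.0501). The remaining 3 subunits were not called, with log2 fold changes of 0.04 for POLA2, 0.04 for PRIM1 and 0.00 for PRIM2. PRIM1 shares its strand with NACA (1253 TPM), and some of its reads may belong to that gene.

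Of the 5 subunits of polymerases delta and epsilon, 2 were called higher and 1 lower. POLD1 (chromosome 19, 50384204 to 50418018, hg38, plus strand) had 21661, 20565 and 21468 normalized counts in shCtrl and 13982, 13415 and 13013 in shPCBP1. Every shPCBP1 library lay far below every shCtrl library, for a log2 fold change of -0.66 (SE 0.04, 95% interval -0.73 to -0.58, DESeq2 adjusted p 1.15e-57). This fall held in all 15 other analyses, from -0.57 under transcript length offsets to -0.96 when only protein-coding transcripts were summed. POLD2, the accessory subunit bound to POLD1, went the other way, from 20555, 19671 and 19101 in shCtrl to 24585, 24056 and 22543 in shPCBP1, a log2 fold change of 0.26 (DESeq2 adjusted p 1.17e-08, SE 0.0423). POLD3 had a log2 fold change of -0.01 (SE 0.0651) and did not pass the test. In TPM, POLD1 stood at 92.6 ± 1.51 (SD, n = 3) in shCtrl and 61.7 ± 3.18 in shPCBP1, and POLD2 at 167 ± 8.29 and 196 ± 5.11.

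POLE, the catalytic subunit of polymerase epsilon, had 20747, 20324 and 20636 normalized counts in shCtrl and 23509, 21958 and 21718 in shPCBP1, a log2 fold change of 0.12 (DESeq2 adjusted p 0.00703, SE 0.0387). The direction turned under transcript length offsets (-0.05, adjusted p 0.596), and the log2 fold change was 0.22 when only protein-coding transcripts were summed (adjusted p 9.6e-06). POLE2 had a log2 fold change of -0.10 (SE 0.0694) and did not pass the test.

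PCNA was called higher, and no gene of its loader was called. PCNA had 16840, 16664 and 17142 normalized counts in shCtrl and 21902, 20688 and 20361 in shPCBP1, with the groups well apart and a log2 fold change of 0.31 (DESeq2 adjusted p 1.72e-14, SE 0.0384). Per length, PCNA went from 205 TPM ± 2.58 (SD, n = 3) to 253 TPM ± 5.56. The 5 genes of the loader, RFC1 to RFC5, had log2 fold changes from -0.05 (RFC4) to 0.07 (RFC2), and 0 of 5 passed the test (DESeq2, 0 also with edgeR or at an unadjusted p under 0.05). Among abundant genes 28.7% were called higher and 16.2% lower, and whether the loader differs from these was not tested. RFC4 lies antisense to EIF4A2 (348 TPM).

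On the lagging strand, FEN1, the nuclease that trims the flap, had a log2 fold change of 0.10 (DESeq2 adjusted p 0.0628, SE 0.0414) and shares its strand with FADS2 (23.1 TPM). FEN1 was called higher without shCtrl replicate 3 (adjusted p 0.0388) or shPCBP1 replicate 3 (adjusted p 0.00998). LIG1, the ligase that seals Okazaki fragments, fell from 10336, 10418 and 10340 normalized counts to 9007, 8688 and 8745, with a log2 fold change of -0.23 (DESeq2 adjusted p 5.07e-08, SE 0.0392). Its shCtrl libraries were nearly identical and all shPCBP1 libraries lay below them. LIG1 and POLD1, which act together in lagging strand synthesis, were the only members called lower in all 15 other analyses as well.

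RPA coats single-stranded DNA at the fork, and 2 of its 3 genes rose, beside 28.7% of abundant genes called higher. RPA1 had 13952, 12461 and 14301 normalized counts in shCtrl and 16103, 16081 and 15880 in shPCBP1, a log2 fold change of 0.24 (DESeq2 adjusted p 8.96e-06, SE 0.0483). RPA2 had 10186, 9622 and 10744 in shCtrl and 11730, 11556 and 11148 in shPCBP1, a log2 fold change of 0.17 (DESeq2 adjusted p 0.00151, SE 0.0469). The groups did not overlap in either gene, while the smallest subunit RPA3 had a log2 fold change of -0.01 (95% interval -0.11 to 0.10) and did not pass the test.

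Among the 4 genes of nucleotide supply, TYMS, which makes thymidylate, rose from 23249, 21344 and 23481 normalized counts to 27599, 25936 and 25285, a log2 fold change of 0.21 (DESeq2 adjusted p 2.62e-05, SE 0.0449). TYMS overlaps ENOSF1 (40.7 TPM) on the other strand. RRM2, the small subunit of ribonucleotide reductase, had 21059, 20794 and 22852 in shCtrl and 24614, 23286 and 22428 in shPCBP1, so that its groups overlapped, with a log2 fold change of 0.12 (DESeq2 adjusted p 0.0294, SE 0.0454). The rise was larger when transcript length was taken into account: in TPM the groups did not overlap (126, 122 and 130 in shCtrl and 162, 150 and 171 in shPCBP1), and under transcript length offsets the log2 fold change was 0.37 (adjusted p 3.38e-08). On counts without those offsets the call was lost with edgeR (adjusted p 0.116) and without shCtrl replicates 1 or 2 or shPCBP1 replicates 1 or 2 (adjusted p from 0.103 to 0.201). The direction turned when only protein-coding transcripts were summed (-0.29, adjusted p 0.628). The coding transcript RRM2-201 stood at 38.0, 37.1 and 36.8 TPM in shCtrl and 37.0, 39.4 and 15.3 TPM in shPCBP1. Transcripts not annotated as protein-coding held 65.9% of RRM2 TPM in shCtrl and 77.2% in shPCBP1, with 89.0% in shPCBP1 replicate 3. RRM1, the large subunit, and TK1, thymidine kinase, had log2 fold changes of 0.08 (DESeq2 adjusted p 0.0738, SE 0.0344) and -0.02 (DESeq2 adjusted p 0.783, SE 0.0419). RRM1 was called higher under transcript length offsets (0.20, adjusted p 0.0303) and without shPCBP1 replicate 3 (0.09, adjusted p 0.0443).

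Since PCBP1 delivers iron, the 4 members known to hold it were set side by side: RRM2 carries a diiron centre and PRIM2, POLD1 and POLE an iron-sulfur cluster. Their gene-level log2 fold changes were 0.12, 0.00, -0.66 and 0.12 in that order, with 95% intervals of 0.03 to 0.21 for RRM2, -0.10 to 0.10 for PRIM2, -0.73 to -0.58 for POLD1 and 0.05 to 0.20 for POLE. They shared no direction at the RNA level.

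POLD1, the member with the largest change, also changed in its transcripts, which were looked at more closely after their values were seen. The annotated main transcript, POLD1-201, stood at 50.9, 50.4 and 49.2 TPM in shCtrl and 19.99, 18.8 and 21.6 TPM in shPCBP1. POLD1-211, a transcript annotated for nonsense-mediated decay, stood at 1.37, 0.704 and 1.76 TPM in shCtrl and 5.62, 7.24 and 5.43 TPM in shPCBP1. The main form was thus lower and the decay form higher in every shPCBP1 library. As shares of the gene's TPM, POLD1-201 went from 54.2% ± 0.59 (SD, n = 3) to 32.6% ± 1.95 and POLD1-211 from 1.38% ± 0.583 to 9.95% ± 2.14. In the test over all transcripts neither share passed (limma adjusted p 0.097 and 0.0736). Both were called with a pseudocount of 1 TPM (adjusted p 0.0265 for POLD1-201 and 0.0227 for POLD1-211) and with transcripts of at least 50 counts (adjusted p 0.0369 and 0.0457).

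POLD1-211 lacks exon 22 of the 27 exons of POLD1-201. This exon spans 50415724 to 50415826 of chromosome 19 and lies in the coding sequence, and its 103 bases are not a multiple of 3, so leaving it out shifts the reading frame. PCBP1 is known to bind C-rich RNA, and the bases before this exon are shown for that reason, read from hg38 on the plus strand with 60 bases of intron, the exon in capitals and 12 bases of the next intron (chr19:50415664-50415838).
POLD1 exon 22: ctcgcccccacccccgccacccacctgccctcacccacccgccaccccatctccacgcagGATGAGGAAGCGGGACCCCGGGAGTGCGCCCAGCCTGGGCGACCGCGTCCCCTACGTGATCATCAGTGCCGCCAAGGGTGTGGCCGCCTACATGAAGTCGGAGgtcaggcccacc

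In the 50 bases upstream of exon 22, 66% were C, the highest of the 26 exons of POLD1-201 that follow an intron; the other 25 held from 30% to 60%, with a median of 40%. Summed over the 10 POLD1 transcripts that include exon 22 with both of its junctions, the level was 73.3, 72.6 and 72.4 TPM in shCtrl and 38.7, 37.3 and 37.7 TPM in shPCBP1. Inclusion of exon 22, as the TPM share of these forms beside POLD1-211, was 98.2%, 99.0% and 97.6% in shCtrl and 87.3%, 83.7% and 87.4% in shPCBP1. The shPCBP1 libraries were all lower, and the gain of POLD1-211 in TPM was much smaller than the loss of the including forms. POLD1-207, which keeps the 569-base intron after exon 22, stood at 8.44 TPM ± 0.611 in shCtrl and 8.60 TPM ± 1.29 in shPCBP1. These values are transcript estimates and not counts of reads across junctions, and POLD1-211 also starts and ends at other bases than POLD1-201. Binding of PCBP1 before exon 22, and any link of its C content to the POLD1 values, was not tested.

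**Figure D4:**
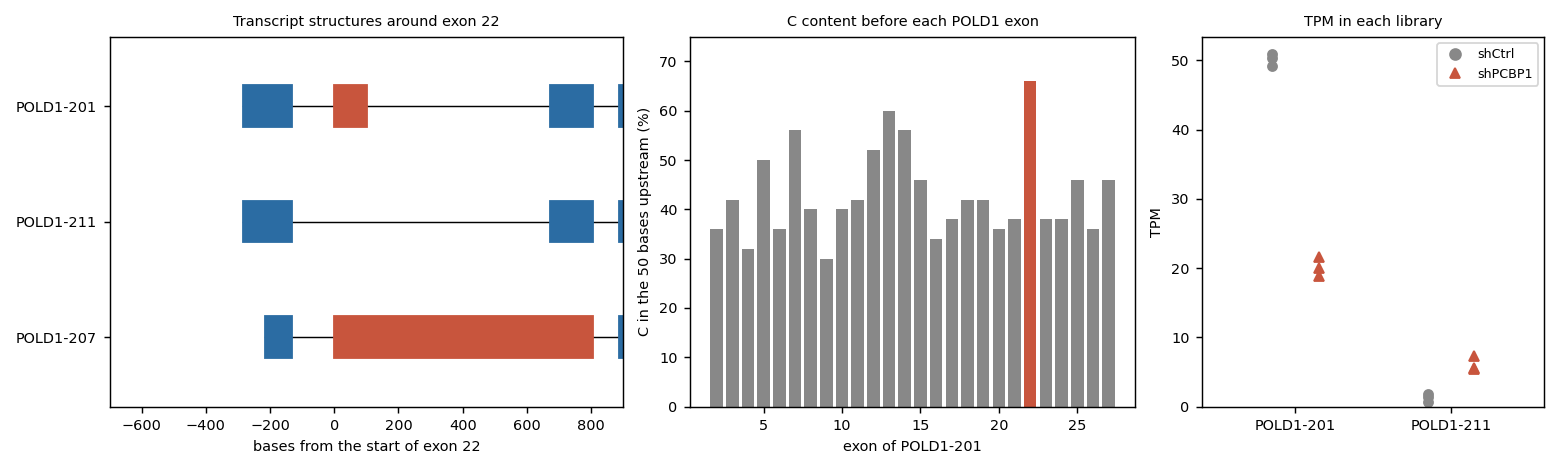
Left, exons of 3 POLD1 transcripts by distance from the start of exon 22, with the block that holds exon 22 in red; middle, percent C in the 50 bases before each exon of POLD1-201, with exon 22 in red at 66%; right, TPM of POLD1-201 and POLD1-211 in each library. POLD1-201 falls from about 50 to about 20 TPM and POLD1-211 rises from 1.28 to 6.10 TPM on average.

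Of 410 transcripts of the 49 genes that could be tested for their share of the gene's TPM, 1 was called (limma, adjusted p under 0.05 and a difference over 5 percentage points), beside 0.136% of 79963 transcripts over all genes. It was POLE-218, a transcript annotated for nonsense-mediated decay, at 3.61, 3.13 and 2.06 TPM in shCtrl and listed at 0 in all 3 shPCBP1 libraries (limma adjusted p 0.00368). Its share of POLE was 5.15% ± 1.22 (SD, n = 3) in shCtrl, just past the 5 points asked for, and without shCtrl replicate 1 it was 4.59% and no longer called (adjusted p 0.0208). With the replicate number as a block the adjusted p was 0.155. The main transcript POLE-201 had 24.7, 25.9 and 26.3 TPM in shCtrl and 31.2, 29.3 and 29.1 TPM in shPCBP1, so it was higher in every knockdown library although POLE as a whole went from 56.5 to 53.8 TPM.

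TK1, whose gene total did not pass the test, had the transcript share with the next lowest p. TK1-201, its main transcript, took 92.1%, 92.9% and 91.6% of TK1 in shCtrl and 82.4%, 79.8% and 82.1% in shPCBP1 (limma adjusted p 0.0682). TK1-203 took 4.53% ± 1.37 (SD, n = 3) in shCtrl and 11.7% ± 1.07 in shPCBP1 (limma adjusted p 0.174). Neither passed the test over all transcripts, though TK1-201 passed with a pseudocount of 1 TPM (adjusted p 0.0233), with transcripts of at least 50 counts (adjusted p 0.0282) and among protein-coding transcripts (adjusted p 0.0451), and its groups did not overlap. TK1-203 keeps the last intron of TK1-201, of 99 bases, which lies within the coding sequence. The intron is shown in capitals with 10 bases of exon on each side (chr17:78174941-78175059, hg38, minus strand), since keeping it changes the coding sequence of TK1-203, and 41.4% of it is C.
TK1 last intron: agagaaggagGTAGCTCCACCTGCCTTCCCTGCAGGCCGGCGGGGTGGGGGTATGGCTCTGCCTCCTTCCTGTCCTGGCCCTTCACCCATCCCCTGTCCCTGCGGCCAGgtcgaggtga

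**Figure D5:**
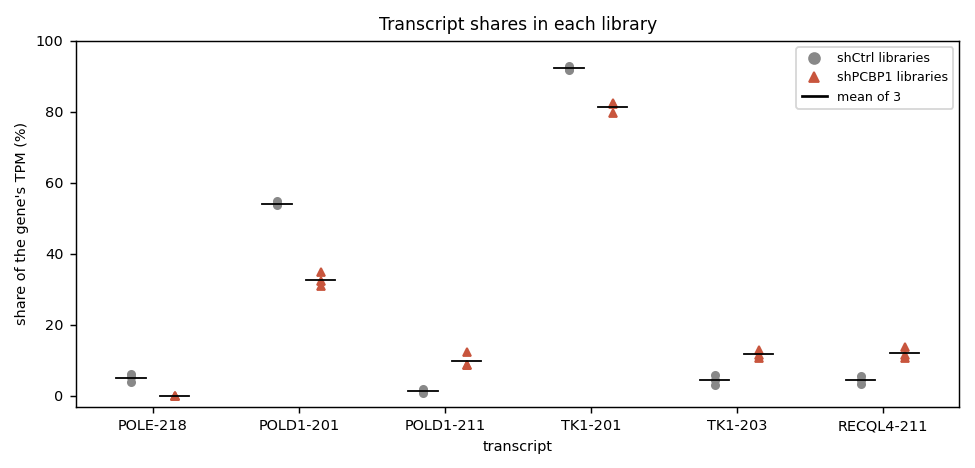
Share of the gene's TPM taken by 6 transcripts of POLE, POLD1, TK1 and RECQL4 in each library, with circles for shCtrl, triangles for shPCBP1 and bars for means of 3. POLE-218 goes from 5.15% to 0, POLD1-201 from 54.2% to 32.6% and TK1-201 from 92.2% to 81.5%.

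The share of a gene's TPM assigned to transcripts not annotated as protein-coding was tested for the 43 members with both kinds of transcript. Of these 0 were called (limma), beside 0.0529% of 9453 genes. An unadjusted p under 0.05 was found for 9 of the 43 (20.9%), beside 13.2% of all genes. POLD1 came nearest, with 26.1%, 24.4% and 24.5% in shCtrl and 43.8%, 38.9% and 42.3% in shPCBP1 (limma adjusted p 0.079), and it was called with a pseudocount of 1 TPM (adjusted p 0.0281). RECQL4 followed, from 20.8% ± 1.46 (SD, n = 3) to 29.9% ± 1.06 (limma adjusted p 0.125), and MCM4 from 28.1% ± 1.01 to 33.4% ± 1.39 (limma adjusted p 0.242). In the 3 genes every shPCBP1 library was above every shCtrl library. The share went the other way for POLE, from 54.6% ± 3.33 to 44.5% ± 2.52 (limma adjusted p 0.243), and POLD2, from 11.1% ± 1.66 to 8.21% ± 0.76 (limma adjusted p 0.298), again with no overlap. Of the 9 members with an unadjusted p under 0.05, 4 had a higher share after knockdown and 5 a lower one (POLE, POLD2, WDHD1, POLA1 and POLA2). Among the MANE Select transcripts, the 1 transcript per gene chosen as its representative, all 3 shPCBP1 libraries were higher in TPM for 20 of the 49 genes and lower for 7 (LIG1, ORC3, POLD1, RECQL4, RFC4, RFC5 and TK1). Over the 8745 such transcripts of all abundant genes, 26.7% were higher in this way and 18.1% lower.

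Promoter sequences were compared for a shared E2F-type motif, since E2F factors are known to act at many of these genes. The letters searched were TTTCCCGC, TTTCGCGC, TTTGCCGC and TTTGGCGC on both strands, which can overlap each other, in the 250 bases before each annotated start in the RefSeq table (GRCh38.p14), where 42 members had an entry and MCM4, MCM5, GINS4, RECQL4, POLD3, RPA2 and RPA3 did not. At least 1 promoter held a match for 15 of the 42 members (35.7%), beside 3.40% of all 27305 genes of the table. Matches stood before 8 of the 16 members with an entry that were called higher (CDT1, MCM3, MCM6, MCM7, POLA1, POLE, PCNA and TYMS), 2 of 3 called lower (LIG1 and ORC3) and 5 of 23 not called (CDC7, GINS2, GMNN, POLA2 and RFC3). MCM6 held the most matches, 4, in 2 overlapping pairs. Stretches before the start of 4 members that rose are shown, since the match sits at a different distance in genes of loading, helicase, clamp and nucleotide supply; matches are in capitals, 5' to 3' on the gene's strand and ending at the last base before the start. They lie at chr16:88803689-88803788 for CDT1, chr2:135876444-135876553 for MCM6, chr20:5126623-5126722 for PCNA and chr18:657553-657652 for TYMS.
CDT1: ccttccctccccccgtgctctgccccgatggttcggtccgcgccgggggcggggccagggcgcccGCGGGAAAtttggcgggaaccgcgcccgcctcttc
MCM6: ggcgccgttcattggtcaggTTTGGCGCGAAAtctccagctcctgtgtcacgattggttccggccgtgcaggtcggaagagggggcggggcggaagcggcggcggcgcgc
PCNA: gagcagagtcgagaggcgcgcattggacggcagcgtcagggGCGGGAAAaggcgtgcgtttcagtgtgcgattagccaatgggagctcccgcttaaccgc
TYMS: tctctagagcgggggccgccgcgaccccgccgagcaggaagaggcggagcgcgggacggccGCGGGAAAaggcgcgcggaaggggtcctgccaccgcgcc

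A match describes these letters and is not a measured site, and both directions of change occurred among genes that held it.

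Another 52 genes of DNA replication were chosen by function, with earlier results of these data known. Of these, 19 (36.5%) were higher and 8 (15.4%) lower at an adjusted p under 0.05 (DESeq2). Among abundant genes 28.7% were higher and 16.2% lower, so the share lower was near that of abundant genes. The median log2 fold change of the 52 genes was 0.06. With transcript length offsets 14 of the 52 were higher and 3 lower, beside 13.6% and 10.1% of all genes tested that way. These shares cover genes of any abundance and cannot be read like the 28.7% and 16.2% of abundant genes. The count of higher genes was 11 without shPCBP1 replicate 1 and 12 without shCtrl replicate 2, while that of lower genes was 5 without shCtrl replicate 1. The small subunits of the polymerases, which belong to the same complexes as POLD1 and POLE, were all called. POLE3 rose from 12766, 11776 and 13744 normalized counts to 17255, 16792 and 15844 (log2 fold change 0.38, SE 0.0527, DESeq2 adjusted p 1.69e-11). POLD4 fell from 2767, 2770 and 2804 to 1954, 2117 and 2200 (log2 fold change -0.41, SE 0.0671, DESeq2 adjusted p 1.73e-08). POLE4 rose by 0.25 (SE 0.0785, DESeq2 adjusted p 0.00729), a call lost when only protein-coding transcripts were summed (adjusted p 0.136) and without shCtrl replicate 2 or shPCBP1 replicates 1 or 2 (adjusted p from 0.0651 to 0.0657). Polymerase delta thus had POLD1 and POLD4 lower, POLD2 higher and POLD3 not called. The other large rises were CCNE2, a cyclin that starts S phase, at 0.40 (SE 0.117), TIPIN, which protects stalled forks, at 0.33 (SE 0.0827), and CDC25A, the phosphatase that activates CDK2, at 0.26 (SE 0.062) on the log2 scale. CCNE2 lost its call without shPCBP1 replicate 1 (adjusted p 0.0541) and rose by 0.26 without shCtrl replicate 2 (adjusted p 0.027), and TIPIN lost its call under transcript length offsets (adjusted p 0.0667).

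Among the 4 genes of other clamp loaders and the unloader, 3 fell and 1 rose, beside 16.2% and 28.7% of abundant genes. Whether these 4 genes differ from abundant genes was not tested. CHTF18 and CHTF8 belong to the loader that serves the leading strand, and ATAD5 takes PCNA off DNA. CHTF18 went from 7371, 7946 and 7258 normalized counts to 5690, 5373 and 5471 (log2 fold change -0.45, SE 0.0507, DESeq2 adjusted p 6.83e-17), CHTF8 fell by 0.41 (SE 0.0745) and ATAD5 by 0.26 (SE 0.0555) on the log2 scale. DSCC1, another partner in that loader, rose by 0.15 (DESeq2 adjusted p 0.0235, SE 0.055). The fall of CHTF8 was 0.10 and not called under transcript length offsets (adjusted p 0.47), and DSCC1 was not called with edgeR (adjusted p 0.0656) or when shPCBP1 replicate 2 was left out (adjusted p 0.105), among other settings.

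Genes of other cell cycle phases moved both ways beside the replication genes, and their part in the changes above was not tested. Of 10 genes of G2 and M, 4 (40%) were higher (PLK1, CENPF, CDC20 and KIF11) and 3 (30%) lower (CDC25C, AURKB and BUB1). Among abundant genes 28.7% were higher and 16.2% lower. The summed level of the 10 genes was 837 to 868 TPM in shCtrl and 840 to 867 TPM in shPCBP1. Of 8 genes tied to G1 arrest, 7 could be tested, and of these 3 were higher and 2 lower. The summed level of the 8 genes was 392 to 422 TPM in shCtrl and 381 to 401 TPM in shPCBP1. CDKN1A, an inhibitor of the kinases that start S phase, rose by 0.76 on the log2 scale (SE 0.0564), and CDKN2C by 0.34 (SE 0.0524) and CDKN1B by 0.23 (SE 0.0648), while CCNG1 fell by 0.87 (SE 0.0584) and CDKN1C by 0.42 (SE 0.0971). CDKN2A was too low to be tested.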

How the data were processed

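The 6 libraries of poly-A RNA from K562 cells, 3 shCtrl and 3 shPCBP1, were grouped by their labels. The authors quantified paired-end reads per transcript with Salmon 1.10.2. The deposited estimated counts are not normalized, and the deposited TPM values are scaled on effective length by the authors' software. The annotation behind the index and the use of strand are not given in the sources used here.

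Of 252045 transcripts, 251612 matched GENCODE release 44, and the rest held 0.136% to 0.147% of counts. Counts were summed per gene and rounded, and genes whose counts summed to 10 or more were fitted by group alone in DESeq2 with its default size factors, a two-sided Wald test and Benjamini-Hochberg adjustment. Shares were tested with limma on log2 ratios of TPM with a pseudocount of 0.1 TPM, for transcripts averaging at least 10 counts in genes averaging at least 1 TPM, two-sided. For members called, up to 24, values in every library are given, and other members by role. Transcripts named beyond the called 1, and the exon, motif and sequences shown, were chosen after values were seen. The members and lists were chosen with earlier results of these data known. Tests were checked on simulated data. Intervals are 1.96 SE. Software comprised DESeq2 1.42.0, limma 3.58.1 and edgeR 4.0.16 under R 4.3.3, and Python 3.11.15.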

Additional observations from a re-analysis of the deposited data

How the results depend on the processing

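Depth was high for these genes, with mean normalized counts from 2194 to 73838, so precision was set by the spread between 3 libraries a group, which left standard errors of 0.0344 to 0.078 on the log2 scale. The members called numbered 16 higher and 4 lower with edgeR, 18 and 4 with TMM factors, 19 and 2 with transcript length offsets, 18 and 6 with protein-coding transcripts only, and 20 and 4 with no filter on low counts, a mean over 50, independent filtering off or the outlier cutoff off. Replicate numbers did not pair the libraries (correlations of same-numbered deviations 0.094, -0.020 and -0.105). With the replicate number as a block, 17 members were higher and 3 lower and 0 transcripts had a changed share. Without 1 library, 17 to 22 were higher and 3 to 4 lower, and the PCBP1 log2 fold change ran from -2.49 to -2.42. No member passed the study thresholds in any of these. The median log2 fold change of the members ran from 0.04 to 0.10.

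Of the 52 other replication genes, 3 were lower under transcript length offsets, and without 1 library 11 to 19 were higher and 5 to 8 lower; the lowest counts came without shPCBP1 replicate 1 for genes higher and without shCtrl replicate 1 for genes lower. Member transcripts with a changed share numbered 4 with a pseudocount of 1 TPM, 4 with a mean transcript count of at least 50, 0 with a difference over 10 points and 0 to 2 without 1 library, with 0 without shCtrl replicate 1, and 2 without any 1 shPCBP1 replicate. The 1 called among protein-coding transcripts was TK1-201, not POLE-218. With a pseudocount of 1 TPM, 1 member had a changed share of transcripts not annotated as protein-coding.

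Signs turned under transcript length offsets for ORC4 (0.025), POLE (-0.049), PRIM2 (0.040), RFC1 (0.050) and RFC4 (0.0024), and with protein-coding transcripts only for CDC7 (-0.0040), ORC6 (0.024) and RRM2 (-0.29). Without 1 library the log2 fold change crossed 0 for ORC5 (-0.015 to 0.069), POLD3 (-0.044 to 0.026), PRIM1 (-0.014 to 0.066), PRIM2 (-0.022 to 0.011), RFC1 (-0.040 to 0.010), RPA3 (-0.028 to 0.015) and TK1 (-0.057 to 0.016). None of these but POLE and RRM2 was called. The cause was not tested.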
